A study of Rattus norvegicus with 6 samples.

Results

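The genes described here encode the channels that carry sodium and calcium into excitable cells, the hyperpolarization-activated HCN channels, and the release channels and pumps of the calcium stores. Members are all probe sets of the array whose only gene symbol in the platform annotation is that of a voltage-gated sodium channel alpha or beta subunit, a calcium channel alpha1, alpha2delta or beta subunit, an HCN channel, a ryanodine or IP3 receptor, or a SERCA or PMCA calcium pump. There are 71 such probe sets for 44 genes, of 31099 probe sets on the array, where 14218 genes have at least 1 probe set that carries their symbol alone. The rule used names only and no measured value.

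RNA was taken from organotypic hippocampal cultures of Wistar rats, which are slices of the hippocampus kept alive in roller tubes with much of their local circuitry. The labels give the age as postnatal day 4. The methods place the dissection of the hippocampi at about this age, which leaves out the time in culture. No genetic change is named for any group. The 3 control samples were untreated, and the 3 gabazine samples received 20 µM gabazine, a blocker of the GABA-A receptor, for 90 min. In each replica the cultures of a couple of littermates were divided between both conditions, so control and gabazine arrays with the same number form a pair. A culture holds neurons, glia and other cells of the slice, and in such bulk RNA fewer cells of a type and less RNA per cell cannot be told apart.

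Voltage-gated sodium channels start and carry the action potential, and HCN channels pass a depolarizing current near rest that sets the excitability and rhythm of hippocampal neurons. Calcium channels turn the electrical signal into calcium entry, with L-type channels coupled to gene expression, P/Q-type and N-type channels to transmitter release and T-type channels to burst firing. Ryanodine and IP3 receptors release calcium from the endoplasmic reticulum, SERCA pumps refill it, and PMCA pumps push calcium out of the cell. When inhibition is blocked, hippocampal networks fire in synchronous bursts, and all these proteins take part in the calcium signals that follow. The comparison of gabazine with control asks whether the messages for this machinery had moved by the time of sampling.

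Arrays gave log2 intensities, and a log2 ratio is taken within a pair, gabazine over its own control. Each mean log2 ratio is over 3 pairs and is given with the standard error (SE) of the limma model fitted to all probe sets, with p-values adjusted by the Benjamini-Hochberg method over all of them. Array medians were 7.89 and 7.90 in pair 2 and 8.63 to 8.71 in the other pairs, so levels are read within a pair. The labelled tissue was checked against its markers. All 6 excitatory neuron markers were measured, with a mean log2 intensity of 10.44 to 11.98 on the control arrays, and the 6 GABAergic interneuron markers averaged 10.19 to 10.79. The array files hold no measure of detection, so a dim probe set cannot be called absent.

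No probe set of these genes passed an adjusted p of 0.05 in either direction, and neither did any other on the array, where 0% were called higher and 0% lower. The smallest adjusted p among the members was 0.747. At an unadjusted limma p under 0.05, 2 members were higher with gabazine, Cacna2d1 1369649_at and Atp2a2 1391771_at, where 1.84% of all probe sets were. A single member was lower, Scn7a 1370973_at, against 2.68% of all probe sets. The ratios of 5 members (7.04%) were above 0 in all 3 pairs, close to the 6.92% of all probe sets, and those of 2 members (2.82%) were below 0 in all 3 pairs, under the 9.49% of all probe sets. The median of the members' mean log2 ratios was 0.03, with a range of -0.46 to 0.64, and that of all probe sets was 0. With each array centred on its median, 21.1% of members and 14.9% of all probe sets were above 0 in every pair, and after cyclic loess 28.2% and 17%. On the deposited values, a share of this size in either direction is not a result about these genes.

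**Figure D1:**
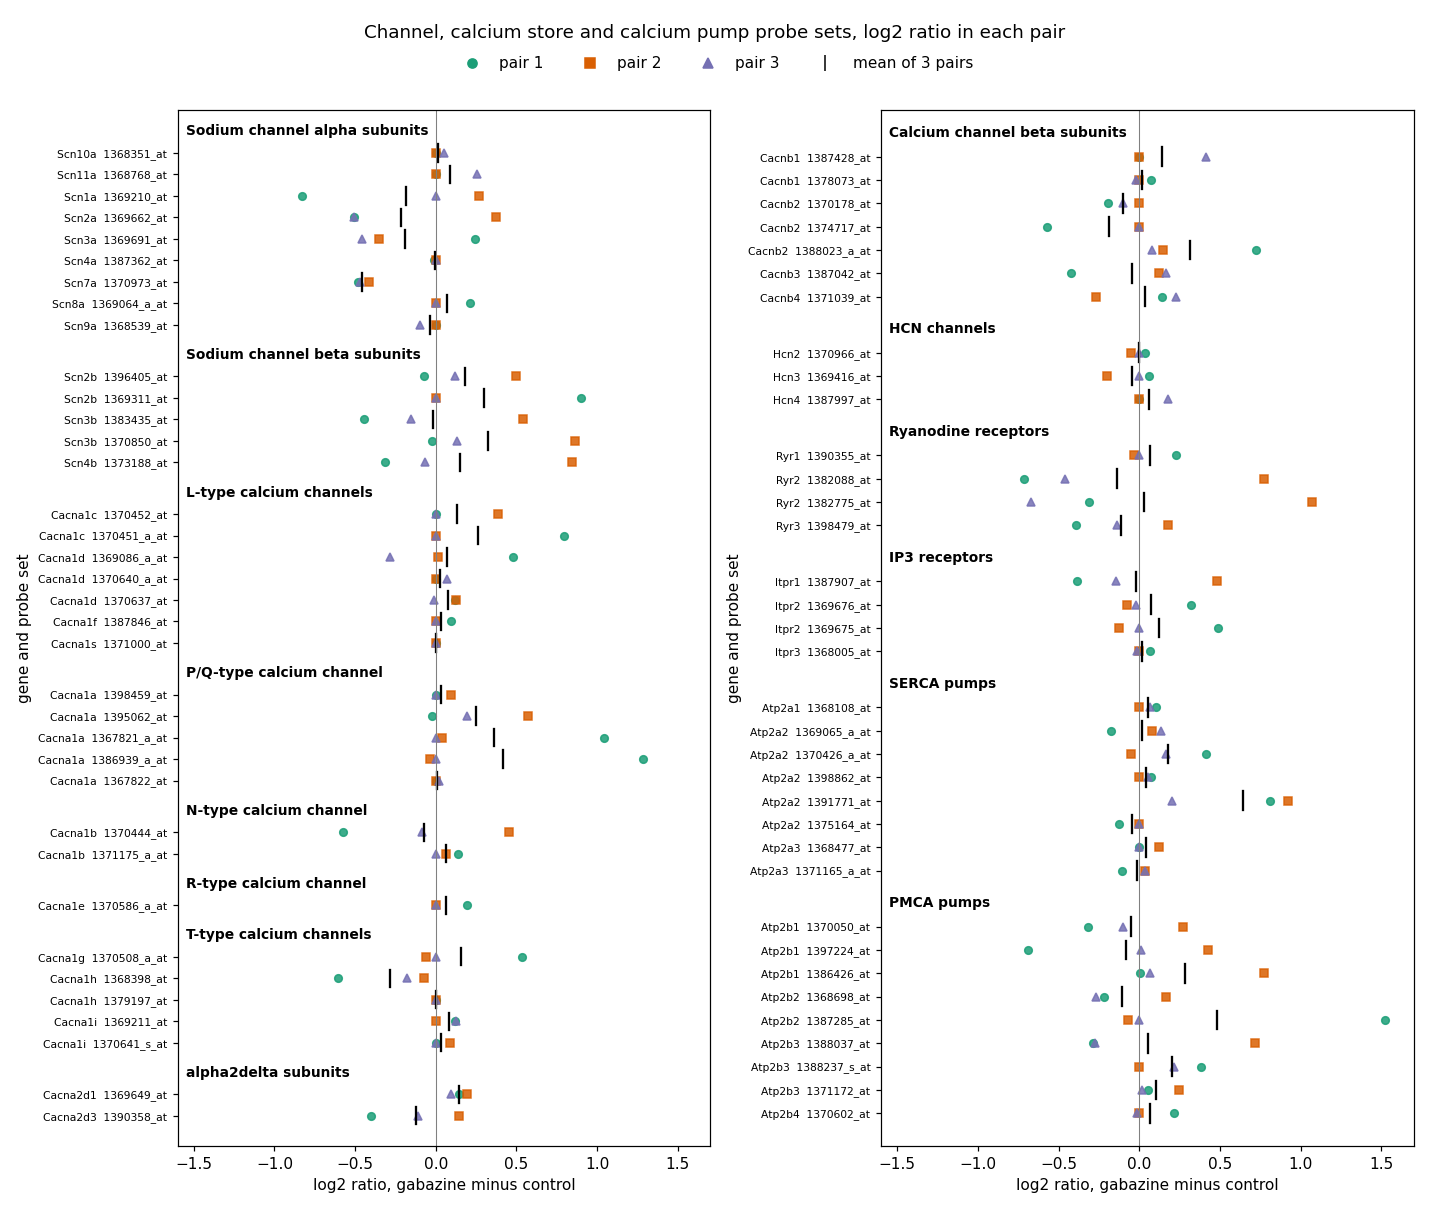
Log2 ratio (gabazine minus control, x axis) of the 71 probe sets in pair 1 (circles), pair 2 (squares) and pair 3 (triangles), grouped by the kind of channel or pump, with a bar at the mean of the 3 pairs. The pairs of Scn7a lie together between -0.48 and -0.42, while the pairs of Ryr2 lie on both sides of 0.

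Taking the brightest probe set of each gene gave the same picture. Of the 44 genes, 1 was higher at an unadjusted limma p under 0.05, where 2.37% of 14218 genes were, and 1 was lower, where 2.84% were. Scn7a and Cacna1h (4.55% of the 44) were below 0 in all 3 pairs on their brightest probe sets, against 10.8% of all genes, and 1 gene (2.27%) was above 0 in all of them, against 7.79%. Several probe sets stood for the same gene in 17 genes, and their mean log2 ratios lay apart by 0.05 to 0.68, the most for Atp2a2.

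Of the 9 sodium channel alpha subunits, Scn7a alone had an unadjusted limma p under 0.05. It encodes the atypical channel Nax, which in the brain is best known as a sodium sensor of glial cells and does not start action potentials. The log2 intensity of Scn7a was 11.31, 10.22 and 9.99 on control arrays 1 to 3 and 10.83, 9.80 and 9.52 on gabazine arrays 1 to 3. Each gabazine array was below its own control by a like amount, 0.42 to 0.48, although the groups overlap because the pairs sit at different levels. The mean log2 ratio of Scn7a was -0.46 (SE 0.03), a level of 0.729 times the control, with a 95% interval of -0.56 to -0.35. Its unadjusted limma p was 0.00094 and its adjusted p 0.747. With only 3 pairs, an exact sign-flip permutation test of this gene alone could not go below 0.25.

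Markers of the cells that could carry Scn7a did not move as a group in all pairs. Over the 6 astrocyte markers the median log2 ratio was 0.03, 0.01 and 0.11 in pairs 1 to 3. Among these, only Aqp4, the water channel of astrocyte endfeet, was lower with gabazine in each pair, with ratios of -0.52, -0.21 and -0.05. Gfap (0.06, 0.05 and 0.09) and Aldh1l1 (0.06, 0.02 and 0.40) were higher in each pair. The 5 markers of meningeal cells or fibroblasts had medians of 0.40, 0.37 and -0.36, and their summed linear intensity ran from 3003 to 16728 on control arrays and from 3993 to 21837 on gabazine arrays. A member of that list, Lum, an extracellular matrix proteoglycan, had ratios of -0.30, -0.29 and -0.31, and no other in the list was below 0 in every pair. Col1a1, Col1a2 and Col3a1 were above 0 in pairs 1 and 2 and below it in pair 3. The part of these markers in the lower Scn7a values was not tested.

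The alpha subunits of the main neuronal sodium channels did not share a direction over the pairs. Scn2a, a channel of excitatory axons and of the young brain, measured 12.18, 10.74 and 11.53 on control arrays and 11.68, 11.11 and 11.02 with gabazine. Its ratio was thus below 0 in pairs 1 and 3 and above 0 in pair 2, with a mean of -0.21 (SE 0.24). Scn1a, the channel prominent in inhibitory interneurons, had ratios of -0.83, 0.27 and 0, and Scn3a, the alpha subunit abundant before birth, of 0.24, -0.35 and -0.46. For Scn8a, the channel of the mature axon initial segment, the ratios were 0.21, 0 and 0. Scn4a, the skeletal muscle channel, and Scn9a, Scn10a and Scn11a, the channels of peripheral sensory neurons, had mean log2 ratios of -0.03 to 0.09. Markers of those tissues had a mean log2 intensity on control arrays of 6.04 to 6.65 for 6 striated muscle genes and of 6.90 to 7.63 for 3 genes of peripheral sensory neurons.

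The beta subunits, which anchor the alpha subunits and shape their gating, were higher in pair 2 on 4 of 5 probe sets. Scn3b 1370850_at measured 12.71, 11.10 and 12.72 on control arrays and 12.69, 11.97 and 12.86 on gabazine arrays, a mean log2 ratio of 0.32 (SE 0.23). The brighter probe set of that gene, 1383435_at, went from 14.03 to 13.58, from 13.02 to 13.56 and from 14.48 to 14.33 in the order of the pairs, with a mean of -0.02 (SE 0.24). Both Scn3b probe sets thus had their highest ratio in pair 2 and lay apart in the other pairs. Scn4b, the subunit linked to resurgent current, had ratios of -0.32, 0.84 and -0.07. Scn2b had ratios of -0.07, 0.50 and 0.12 on 1396405_at, while 1369311_at rose by 0.90 in pair 1 and did not differ in pairs 2 and 3.

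The 3 HCN channels measured had mean log2 ratios near 0. Hcn2 had a mean log2 ratio of 0.00 with a 95% interval of -0.12 to 0.11, and Hcn3 of -0.05 with an interval of -0.28 to 0.18. Hcn4, the slowest channel of the family and the pacemaker channel of the heart, measured 7.50, 6.65 and 7.64 on control arrays and 7.50, 6.65 and 7.82 with gabazine, a mean of 0.06 with an interval of -0.12 to 0.24. Each of these probe sets had the same value on both arrays of at least 1 pair, so that the intervals rest in part on identical deposited values, and Hcn4 was tied in pairs 1 and 2.

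The pore-forming alpha1 subunits of the calcium channels gave 20 probe sets, and none had an unadjusted limma p under 0.05. The L-type channels Cacna1c, Cacna1d, Cacna1f and Cacna1s had mean log2 ratios of 0 to 0.26 over 7 probe sets. The highest of these was Cacna1c 1370451_a_at, which measured 6.70, 5.94 and 6.88 on control arrays and 7.50, 5.94 and 6.88 on gabazine arrays. The brighter Cacna1c probe set, 1370452_at, differed only in pair 2, from 9.14 to 9.53. Both probe sets of Cacna1c, the main L-type channel of the brain, thus differed in a single pair, and not in the same pair.

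Cacna1a, the P/Q-type channel of fast transmitter release, was measured by 5 probe sets. On 1386939_a_at it went from 6.93 to 8.21 in pair 1, while pair 2 went from 6.25 to 6.22 and pair 3 stayed at 6.88, for a mean log2 ratio of 0.42 (SE 0.36). A nearby value came from 1367821_a_at, with ratios of 1.04, 0.04 and 0. The brightest Cacna1a probe set, 1398459_at, had ratios of 0, 0.09 and 0. The gain of pair 1 was therefore seen on 2 of the 5 probe sets of the gene.

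Cacna1b, the N-type channel of presynaptic terminals, measured 11.12, 8.88 and 10.50 on control arrays and 10.54, 9.33 and 10.41 on gabazine arrays with 1370444_at. Pair 2 was again the pair in which it was higher, and the mean was -0.07 (SE 0.25). The dimmer Cacna1b probe set, 1371175_a_at, had ratios of 0.14, 0.06 and 0. Cacna1e, the R-type channel, had ratios of 0.19, 0.00 and 0. Of the T-type channels, Cacna1h was below 0 in every pair on 1368398_at, from 8.37 to 7.76, from 6.65 to 6.58 and from 7.58 to 7.40, with a mean of -0.29 (SE 0.14, adjusted limma p of 0.747). The other Cacna1h probe set had the same value on both arrays of each pair, and Cacna1g and Cacna1i had means of 0.03 to 0.16.

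Cacna2d1 encodes the alpha2delta subunit that brings calcium channels to the membrane and binds the drug gabapentin. On 1369649_at it measured 11.69, 10.67 and 11.74 on control arrays and 11.84, 10.86 and 11.83 on gabazine arrays. Every gabazine array lay above its control, by 0.14, 0.19 and 0.09, a mean log2 ratio of 0.14 (SE 0.04; 95% interval 0.02 to 0.26). The unadjusted limma p was 0.0322 and the adjusted p 0.747. Under the alternatives run for this probe set the unadjusted limma p was 0.0704 to 0.791, so that none of these held the call. Cacna2d3, the other alpha2delta gene measured, had ratios of -0.40, 0.15 and -0.11.

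A larger difference stood on a probe set outside the rule. The annotation gives 1397823_at no symbol, and the probe set list of the study names it Cacna2d1. It measured 9.59, 7.9975 and 8.26 on control arrays and 10.87, 9.99 and 9.13 on gabazine arrays, so that the ratios were 1.28, 1.99 and 0.87. Because the name comes from a list that the study made from these same arrays, the values are a description and no test is given. This probe set is left out of every count.

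**Figure D2:**
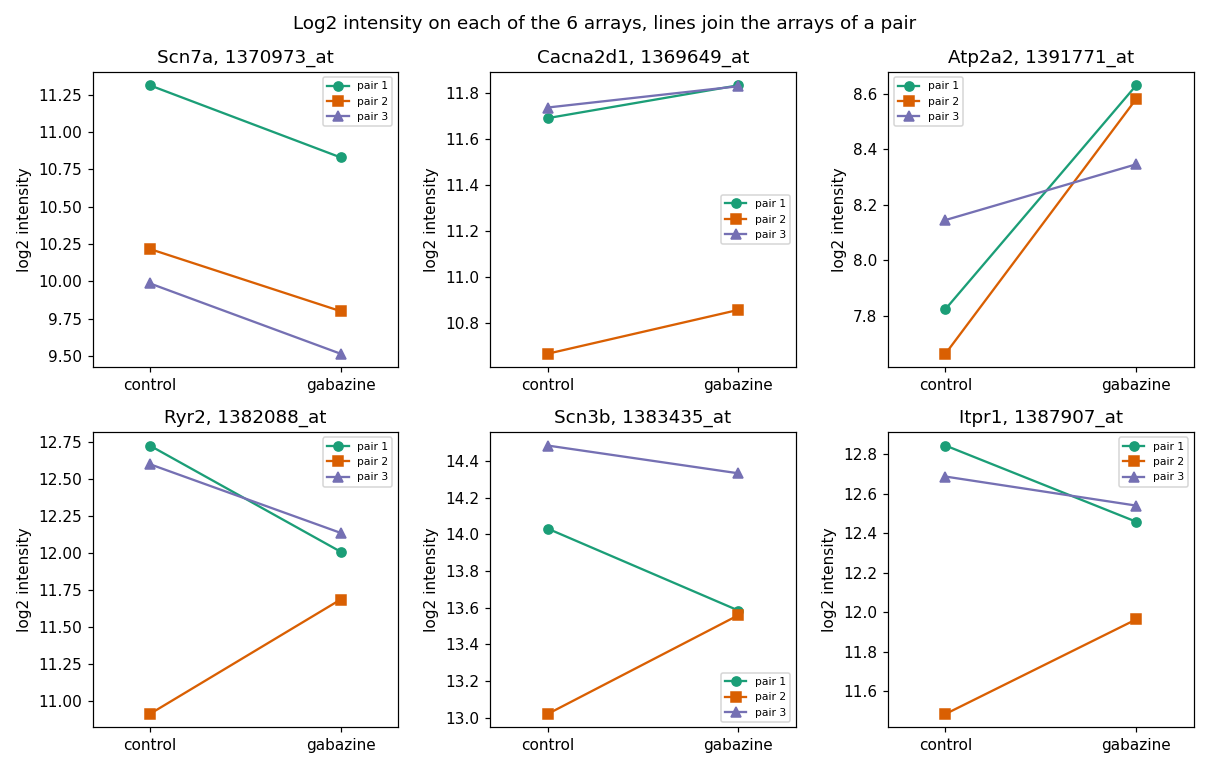
Log2 intensity (y axis, a separate scale for each panel) on the 6 arrays for 6 probe sets, where each line joins the control and the gabazine array of a pair. All lines fall for Scn7a and all rise for Cacna2d1 1369649_at and Atp2a2 1391771_at, while for Ryr2, Scn3b and Itpr1 the line of pair 2 rises and the lines of pairs 1 and 3 fall.

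The beta subunits of the calcium channels, cytosolic proteins that carry the pore to the membrane, gave 7 probe sets with means of -0.19 to 0.32. Cacnb2 1388023_a_at was above its control in each pair, from 6.97 to 7.70, from 5.24 to 5.39 and from 5.90 to 5.98, a mean of 0.32 (SE 0.17). The brightest Cacnb2 probe set, 1370178_at, went from 10.99 to 10.79, stayed at 9.90 and went from 10.70 to 10.60. These probe sets of the same gene thus lay on opposite sides of 0.

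Among the release channels of the stores, the pairs of Ryr2 differed in sign on both of its probe sets. Ryr2, the main ryanodine receptor of brain and heart, measured 12.72, 10.91 and 12.60 on control arrays and 12.01, 11.69 and 12.13 on gabazine arrays with 1382088_at. The ratios of -0.72, 0.77 and -0.46 averaged -0.14 (SE 0.38). A second Ryr2 probe set, 1382775_at, repeated the signs, with ratios of -0.31, 1.07 and -0.67. Ryr3, the other ryanodine receptor known from the hippocampus, had -0.39, 0.18 and -0.13, and Ryr1, that of skeletal muscle, 0.23, -0.03 and 0.

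Itpr1, the IP3 receptor of neurons, measured 12.84, 11.49 and 12.69 on control arrays and 12.46, 11.96 and 12.54 with gabazine. Its ratios of -0.39, 0.48 and -0.15 had the signs of Ryr2, with a mean of -0.02 (SE 0.21). Itpr2, the form of glia and other non-neuronal cells, measured 7.71, 6.69 and 7.38 on control arrays and 8.20, 6.57 and 7.38 with gabazine on 1369675_at, a mean of 0.12. The brighter Itpr2 probe set averaged 0.07 and Itpr3 0.02, and for both genes the sign of pair 2 was not that of Itpr1.

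Of the pumps that refill the store, Atp2a2, which encodes SERCA2, the housekeeping form, was measured by 5 probe sets. On 1391771_at it measured 7.82, 7.66 and 8.14 on control arrays and 8.63, 8.58 and 8.35 on gabazine arrays. The groups did not overlap on this probe set, with ratios of 0.81, 0.92 and 0.20 and a mean of 0.64 (SE 0.19; 95% interval 0.04 to 1.24). The unadjusted limma p was 0.0426 and the adjusted p 0.747, and the former was 0.213 and 0.183 without replicates 1 and 2 and 0.232 without the pairing. The 4 other Atp2a2 probe sets had means of -0.04 to 0.18, and the brightest, 1369065_a_at, went from 13.76 to 13.58, from 12.88 to 12.96 and from 13.58 to 13.72. The higher value was thus held by 1 of the 5 probe sets. Which transcript forms each of them reads was not analysed here. Atp2a1 and Atp2a3, the forms of fast muscle and of blood and epithelial cells, had means of -0.01 to 0.06.

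The PMCA pumps gave 9 probe sets, with means of -0.11 to 0.48. The highest was Atp2b2 1387285_at, for PMCA2, a fast pump of neurons and hair cells, which went from 6.63 to 8.15 in pair 1, from 5.19 to 5.13 in pair 2 and stayed at 5.69 in pair 3. The brighter Atp2b2 probe set, 1368698_at, went from 11.87 to 11.65, from 10.48 to 10.65 and from 10.48 to 10.21. The gain of pair 1 was not seen there. Atp2b1, the widely expressed PMCA1, had means of -0.08, -0.05 and 0.28 on its 3 probe sets, and Atp2b3, a brain form, had ratios of -0.29, 0.72 and -0.28 on its brightest. Members above 0 in all pairs included Atp2b1 1386426_at, with ratios of 0.003, 0.77 and 0.07, and Atp2b3 1371172_at, with 0.06, 0.24 and 0.01.

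The signs of Ryr2 and Itpr1 recurred over the brighter members. At a mean log2 intensity of at least 8.41, the median over all probe sets, stood 29 members of 22 genes. Their median log2 ratios were -0.29, 0.19 and -0.02 in pairs 1 to 3, where the brighter probe sets of the whole array had -0.07, 0 and 0. Of the 29, 20 were lower in pair 1 and 20 were higher in pair 2. In 17 of them (58.6%) both held, against 24.3% of all brighter probe sets, and in 11 (37.9%) the ratio of pair 3 was below 0 as well, against 12.4%. These 17 include the neuronal genes Scn1a, Scn2a, Scn2b, Scn3b, Cacna1b, Cacna2d3, Ryr2, Ryr3, Itpr1, Atp2b2 and Atp2b3. Also among them are Cacnb3, the housekeeping pump Atp2a2 on 1369065_a_at and the widely expressed pump Atp2b1 on 1370050_at and 1397224_at. Other brighter probe sets of these pumps did not hold the pattern. Atp2a2 had ratios of 0.41, -0.05 and 0.16 on 1370426_a_at and of 0.07, 0 and 0.05 on 1398862_at. Atp2b1 1386426_at had 0.003, 0.77 and 0.07. This pattern was noticed in the data and has no test, and its probe sets share the same 6 arrays and in part the same genes.

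**Figure D3:**
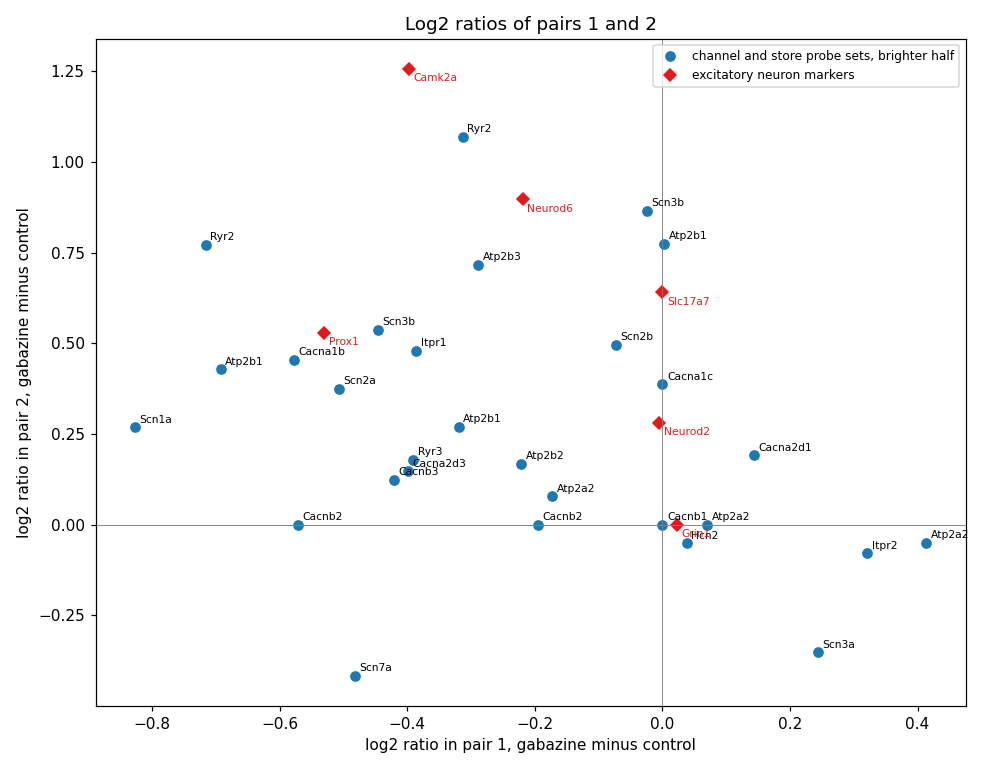
Log2 ratio (gabazine minus control) in pair 1 (x axis) against pair 2 (y axis) for the 29 brighter channel and store probe sets (blue circles) and 6 excitatory neuron markers (red diamonds). Of the 29 circles, 17 lie at the upper left, lower with gabazine in pair 1 and higher in pair 2, as do 4 of the 6 markers.

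Across the 71 members the correlation of the log2 ratios was -0.30 between pairs 1 and 2, 0.31 between pairs 1 and 3 and -0.19 between pairs 2 and 3. Across all probe sets these values were 0.02, 0.29 and 0.04. They are given as a description, since genes are not independent replicates. The share of brighter members higher in pair 2 and lower in pair 1 was 79.3% with each array centred on its median, 62.1% after quantile normalization and 58.6% after cyclic loess, against 40.1%, 26.7% and 25.5% of all brighter probe sets. With the brightest probe set of each gene it was 14 of 22 (63.6%), against 22.7%. All of these were chosen after the data had been seen.

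Markers of excitatory neurons held this pattern in part. Their 6 genes had median log2 ratios of -0.11, 0.59 and 0.15 in pairs 1 to 3, and 4 of the 6 were lower in pair 1 and higher in pair 2. Among those 4, Neurod2 had a ratio of only -0.005 in pair 1. Slc17a7 (0, 0.64 and 0.40) and Grin1 (0.02, 0 and 0.39) did not hold the pattern. Of the 6 GABAergic interneuron markers, 1 held it. Camk2a, the kinase abundant in excitatory neurons, measured 12.86, 10.75 and 10.62 on control arrays and 12.46, 12.01 and 10.46 with gabazine, ratios of -0.40, 1.26 and -0.17. The summed linear intensity of the list ran from 9019 to 28491 on control arrays and from 14885 to 25168 on gabazine arrays. The part of these markers in the values of the channel genes was not tested.

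Dimmer members had another profile, with their differences in pair 1. Of the 42 below the same median, 25 (59.5%) were higher with gabazine in pair 1 and 6 lower, where 44.7% of all dimmer probe sets were higher. Among them were Atp2b2 1387285_at, Cacna1a 1386939_a_at, Cacna1a 1367821_a_at, Scn2b 1369311_at and Cacna1c 1370451_a_at, whose ratios were 0.79 to 1.52 in pair 1 and -0.07 to 0.04 in the other pairs. Pair 1 also had other features. The signal of the 5′ probe sets relative to the 3′ probe sets, read on 3 control transcripts of the array and sensitive to RNA integrity, differed by 0.50 between its arrays, against -0.02 and -0.08 in pairs 2 and 3. Ttr, the transthyretin of the choroid plexus, rose by 4.59 in pair 1 and by 0.14 and 0.07 in the others. Over the 4 choroid plexus markers measured, the summed linear intensity was 1283 to 2340 on control arrays and 1371 to 11102 on gabazine arrays. The part of these features in the pair 1 values was not tested.

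**Figure D4:**
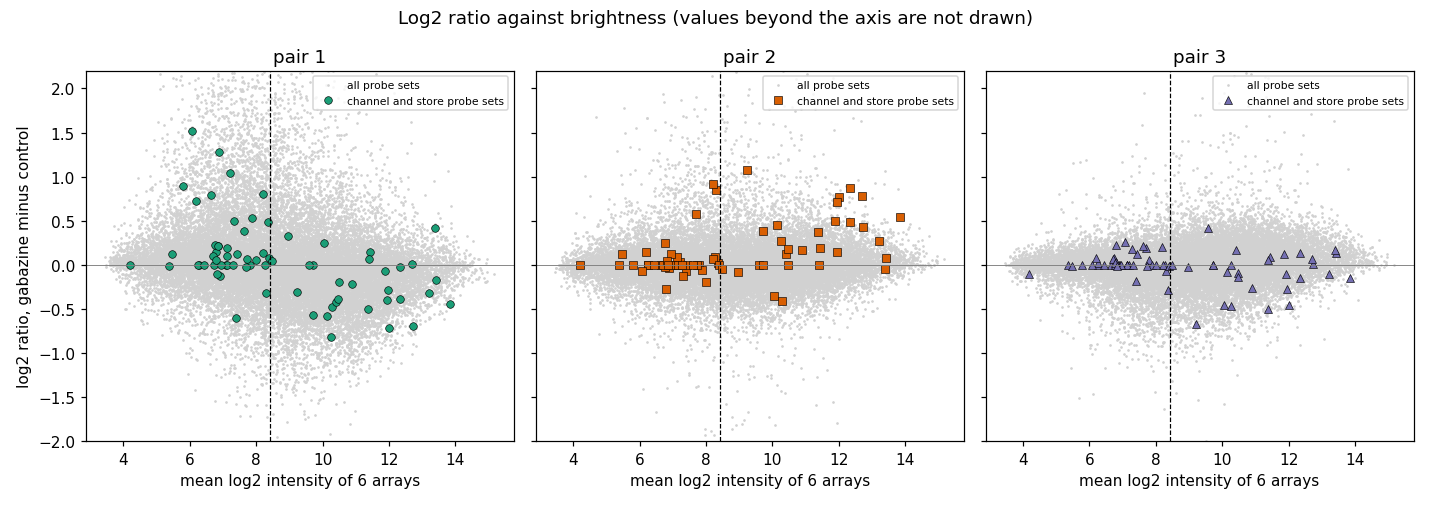
Log2 ratio (y axis, gabazine minus control) against the mean log2 intensity of the 6 arrays (x axis) in pairs 1, 2 and 3, for the 71 channel and store probe sets (coloured) over all probe sets (grey), with a dashed line at 8.41. The coloured points right of the line lie mostly below 0 in pair 1 and mostly above 0 in pair 2, and the highest points of pair 1 lie left of it.

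The spread of the members' log2 ratios was 0.44, 0.30 and 0.18 (SD over 71 probe sets) in pairs 1, 2 and 3, and that of all probe sets was 0.475, 0.247 and 0.23. Many values were the same on both arrays of a pair: 39 members (54.9%) were tied in at least 1 pair, against 47.4% of all probe sets. Ties were more frequent in the dimmer members, 32 of 42, than in the brighter ones, 7 of 29. Cacna1s 1371000_at and Cacna1h 1379197_at were tied in all 3 pairs. A ratio of 0 in such a pair says only that the deposited values were the same.

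The other genes that handle calcium and sodium in neurons were read from a list of 84, of which 77 were measured. None passed the adjusted threshold, 4 were higher and 1 was lower at an unadjusted limma p under 0.05, and the median log2 ratio was 0.02. Orai3, a pore subunit of store-operated calcium entry, measured 8.78, 7.52 and 8.19 on control arrays and 9.33, 7.72 and 8.50 on gabazine arrays, a mean of 0.36. Gem, a small GTP-binding protein that restrains calcium channels, measured 8.59, 10.33 and 9.33 and then 9.01, 10.50 and 9.96, a mean of 0.40. In both, each gabazine array lay above its control.

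Slc24a4, an exchanger of sodium for calcium and potassium, had ratios of 0.55, 0.29 and 0.20, and Fkbp1b, a protein bound to ryanodine receptors, of 0.09, 0.34 and 0.37. Sptbn4, the spectrin of the axon initial segment and the nodes where sodium channels cluster, had ratios of -0.29, -0.13 and -0.23. Read on the brightest probe set of each gene, as here, 2.37% and 2.84% of all genes were past the same limit, and every adjusted limma p of the list was 0.747 or more. The listed genes of mitochondrial calcium uptake, 6 measured, had a median of -0.24, with -0.36, -0.13 and 0.04 in pairs 1 to 3. The 15 partners of the release channels and stores had a median of 0. The sign pattern of the brighter members, higher in pair 2 and lower in pair 1, was also held by 9 of these 15 partners. It was held by 4 of 6 genes of store-operated entry, 3 of 7 exchangers and 6 of 14 partners of sodium and HCN channels. The counts were 5 of 12 calcium buffers and sensors, 3 of 9 calcium channel regulators, 0 of 8 calcium channel gamma subunits and 0 of 6 mitochondrial genes. These lists mix brighter and dimmer genes, and only 2 of the gamma subunits were among the brighter. Over all probe sets, 24.3% of the brighter and 10.2% of the dimmer held the pattern.

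The promoters of the 3 genes with an unadjusted limma p under 0.05 on the deposited values are shown because all of them hold letters of the recognition site of the EGR family, transcription factors that neuronal activity induces. RefSeq (build GRCr8) gave a window of 250 bases before a transcript start for 34 of the 44 genes. Both strands were searched for GCGNGGGCG, the EGR site, and 10 of the 34 windows (29.4%) held it, against 4.53% of the windows of 27457 genes. The windows of these genes are also richer in G and C, with a median of 70.4% against 52% in all. Among windows with at least 60% G and C, 9 of 21 members (42.9%) and 14.8% of all genes held the site. Such a floor does not match the content, since those 9 windows held 71.6% to 88.8% G and C. The site itself is mostly G and C, and the gap was not tested. The genes whose windows held it were Atp2a2, Cacna1b, Cacna1d, Cacna2d1, Cacnb3, Hcn2, Itpr3, Ryr2, Scn7a and Scn8a. In 19 of the 34 genes the window reaches into the span of a longer transcript of the same gene, those of Scn7a and Cacna2d1 included. Among the genes with the site, the windows of Cacnb3, Itpr3 and Scn8a lie wholly within that span. In the following stretches, 5′ to 3′ on the strand of the gene, capitals mark the match on either strand, and Ryr2 is added for the opposed signs of its pairs. Cacna2d1 held a second match 32 bases before the start, and no match of another motif searched overlapped one of these.
Scn7a, chr3:71846391-71846419, minus strand, match 116 bases before the start: caatatcaccCGCCCACGCttgattatcc
Cacna2d1, chr4:20330181-20330209, minus strand, match 43 bases before the start: ccgccccctcCGCCCCCGCcccgcccccg
Atp2a2, chr12:39733347-39733375, plus strand, match 153 bases before the start: cctgccggcaGCGTGGGCGcgcagcgcgc
Atp2a2, chr12:39733403-39733431, plus strand, match 97 bases before the start: ggggccgcgcCGCCCGCGCcgcgctgggc
Ryr2, chr17:63081463-63081491, plus strand, match 45 bases before the start: gcccccagccCGCCCCCGCcgctgcacta

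Genes with the site did not share a direction, with Scn7a below its controls in all pairs and Cacna2d1 above them. For Atp2a2, whose start is the first base of the annotated gene, the whole window is given, chr12:39733269-39733518 on the plus strand, with both matches in capitals.
Atp2a2: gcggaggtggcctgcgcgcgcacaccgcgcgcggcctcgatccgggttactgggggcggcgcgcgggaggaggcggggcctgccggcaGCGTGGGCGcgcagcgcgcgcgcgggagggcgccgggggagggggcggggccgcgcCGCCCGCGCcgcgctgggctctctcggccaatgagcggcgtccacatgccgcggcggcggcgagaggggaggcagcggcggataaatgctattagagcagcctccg

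The other motifs searched matched 0 or 1 of the 34 windows each, too few to be read as a trait of these genes. The higher G and C content of these windows was not matched here either. TGACGTCA, the cyclic AMP response element, was in none of the 34 windows and in 1.69% of all, and the CArG box, bound by SRF, was in none and in 1.51% of all. TGANTCA, a loose form of the AP-1 site that allows any base at its centre, was in 1 window and in 6.33% of all. That window was that of Scn3a, where the match read TGATTCA. The MEF2 site was in none and in 3.09% of all, and TATAAA, the TATA box, was in 1, that of Cacna1s, and in 13.1% of all. A match is a stretch of letters, and no binding was measured here.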

How the data were processed

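Total RNA of the 3 control and 3 gabazine cultures was hybridized to Affymetrix RAT2302 arrays. The values are log2 intensities that the authors obtained with RMA, named without a version in the methods and the submitters' processing notes. The sources used here do not say whether all 6 arrays were normalized together. Precision is limited by the number of arrays. Conditions and pair numbers came from the sample labels. The annotation gives 20832 probe sets 1 symbol and 436 several, which named no gene, and 9831 are unnamed.

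The fit was made with limma 3.58.1 (R 4.3.3) on all 31099 probe sets, with the pair as a block, 2 residual degrees of freedom, eBayes and the Benjamini-Hochberg adjustment, and it was tested on simulated data. The block follows the methods, which set each replica against its own control, and the paired arrays' deviations from their group means correlated at 0.794, 0.664 and 0.853. The labels describe each replica as its own couple of littermates, and p-values measure the spread between these pairs.

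Within each kind of channel or pump, the text gives array values for probe sets with an unadjusted p under 0.05 or a mean log2 ratio of 0.5 or more, or else the largest ratio, and for the brightest probe set of that gene. Other values were picked after they were seen. The members and lists were chosen with earlier results of these data known. Alternatives were no block, each pair left out, 3 other scalings, the dimmest 40% left out and tied probe sets left out. Further ones were a trended robust eBayes, gene means, and a joint empirical distribution patterned on that of the methods. Promoter windows are those of the RefSeq start farthest upstream among those listed, 1 a gene. No window was matched for Atp2b3, Cacna1g, Cacna1h, Cacna1i, Cacnb1, Cacnb4, Hcn3, Hcn4, Scn1a and Scn3b.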

Additional observations from a re-analysis of the deposited data

How the results depend on the processing

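No member passed an adjusted limma p of 0.05 under any alternative run, and the mean log2 ratios of Scn7a (-0.48 to -0.41), Cacna2d1 1369649_at (0.12 to 0.17) and Atp2a2 1391771_at (0.50 to 0.86) kept their signs under each one that gave them. The unadjusted p of Cacna2d1 was above 0.05 under all of these alternatives, that of Scn7a only without the replicate block (0.396), and that of Atp2a2 without the block and without replicate 1 or 2. The 2 members higher at an unadjusted p under 0.05 became 0 without the replicate block, 0 to 1 with a pair left out and 1 under each of median centring, quantile normalization, cyclic loess, the dimmest 40% left out, tied probe sets left out and eBayes with trend and robust. With gene means 2 genes were higher (4.55%, against 2.55% of all genes). The 1 lower became 0 without the replicate block and 1 to 5 with a pair left out, the most without replicate 2 (7.04%, against 4.06% of all probe sets). By a joint empirical distribution patterned on that of the methods, 5 members passed as higher and 4 as lower at 0.005. The shares of all probe sets that passed were 5.42% and 7.28%. A probe set extreme in a single pair can pass whatever its signs in the others, and Ryr2 passed in both directions. These counts therefore do not show a direction shared by the pairs. The 5 members higher in all pairs became 10 to 12 with a pair left out, 15 with median centring, 8 with quantile normalization, 20 with cyclic loess and 3 without the dimmest 40%. Their shares with replicates 1, 2 and 3 left out in turn were 16.9%, 15.5% and 14.1%, against 14.3%, 19.6% and 13.5% of all probe sets, then 21.1%, 11.3%, 28.2% and 7.5%, against 14.9%, 10.8%, 17% and 8.52%. The 2 lower in all pairs became 2 to 15 with a pair left out, 15 without replicate 2, 4 with quantile normalization and 1 without the dimmest 40%, and under each setting this share was below that of all probe sets. A pair left out leaves fewer signs to meet, and the cause of the other shifts was not tested. Without the replicate block, 14 probe sets of the array passed the adjusted threshold, none of them a member. The members' median log2 ratio was 0.01 to 0.05 under all alternatives. Exact ties and the missing detection measure limit what dim probe sets can show, and 2 residual degrees of freedom limit every test.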
